A study of Mus musculus with 5 samples.

Results

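The IFITM family of haematopoietic stem cells (HSCs) is described here through 4 genes, Ifitm1, Ifitm2, Ifitm3 and Ifitm6. They were chosen by symbol, and all 4 are among the 35976 gene rows of the count table. Bone marrow HSCs of C57BL/6 mice were sorted as 30 cells per library, gated as lacking lineage markers and CD34 and carrying Sca-1, c-kit and CD150, and were profiled by Smart-seq2, which amplifies full-length cDNA. The sample labels give 3 Ythdf3-/- and 2 WT libraries and describe neither the Ythdf3 allele nor age. Per the series text each library comes from a separate mouse, but that text counts 2 knockout and 3 wild-type samples instead.

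IFITM proteins are small membrane proteins that hinder enveloped viruses from fusing with cellular membranes and so from entering the cytosol. IFITM1 resides mainly at the plasma membrane, while IFITM2 and IFITM3 reside mainly in endosomes and lysosomes. Interferon induces the genes in most cells, but stem cells are known to transcribe them without infection, as part of a constitutive antiviral defence. YTHDF3, the protein removed by the knockout, reads N6-methyladenosine in mRNA, and in mouse cells it has been reported to restrain antiviral genes by promoting translation of the transcription factor FOXO3. The comparison asks whether IFITM transcripts differ between the labelled genotypes, although Ythdf3 counts, given below, do not follow the labels.

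All 4 genes lie within a cluster on chromosome 7. In the mm10 build Ifitm2 spans 140954837 to 140959686 on the minus strand and Ifitm1 spans 140967429 to 140969827 on the plus strand. Ifitm3 spans 141009590 to 141010744 and Ifitm6 spans 141015812 to 141016892, both on the minus strand. No other RefSeq gene span overlaps any of the 4.

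The stretches around the transcription start are shown because the family is classed as interferon-inducible, and capitals mark matches to GAAA, any 2 bases and GAAA again, the tandem half-sites of the interferon-stimulated response element. Each runs from 60 bases before to 30 bases after a RefSeq start, 5′ to 3′ on the gene's strand in GRCm38.p6 (mm10), at chr7:140968016-140968105 (Ifitm1, plus strand), chr7:140955932-140956021 (Ifitm2), chr7:141010715-141010804 (Ifitm3) and chr7:141016863-141016952 (Ifitm6), the last 3 on the minus strand.
Ifitm1: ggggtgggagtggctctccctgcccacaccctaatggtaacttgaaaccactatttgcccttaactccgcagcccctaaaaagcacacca
Ifitm2: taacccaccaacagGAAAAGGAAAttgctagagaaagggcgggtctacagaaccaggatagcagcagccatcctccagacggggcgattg
Ifitm3: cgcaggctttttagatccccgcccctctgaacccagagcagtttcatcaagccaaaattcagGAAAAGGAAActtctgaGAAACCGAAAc
Ifitm6: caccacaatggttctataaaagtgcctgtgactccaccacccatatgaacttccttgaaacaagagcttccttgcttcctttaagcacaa

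Both strands of the RefSeq window from 250 bases before to 50 bases after the start were searched. Ifitm3 held 2 matches, starting at bases 3 and 20 after the start, and Ifitm2 held 1 match, at base -46. Ifitm1 and Ifitm6 held none in this window. For Ifitm1 and Ifitm2 the window covers only 1 of the annotated starts. Their RefSeq spans begin further upstream, at 140967429 (Ifitm1) and 140959686 (Ifitm2), and those parts were not searched. Over all genes with a promoter in the RefSeq table, 1079 of 27025 (3.99%) held a match. The letters TTCNNNGAA, those of the gamma interferon activated site, occurred once in Ifitm3, overlapping its second tandem GAAA match, and once in Ifitm6, against 9.55% of all genes.

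The coding sequences resemble each other, so the sharing of reads was checked first. Ifitm1 and Ifitm3 were identical at 81.5% of aligned coding bases, Ifitm1 and Ifitm2 at 79.9%, and Ifitm2 and Ifitm3 at 79.6%, while Ifitm6 was at 66.7% to 69.3% to the other 3. The longest identical coding runs are printed because a read has to be longer than these to be placed on 1 member. The first lies at chr7:140968351-140968414 in Ifitm1 (plus strand) and chr7:141010421-141010484 in Ifitm3 (minus strand), and the second at chr7:140955718-140955786 in Ifitm2 and chr7:141010445-141010513 in Ifitm3 (both minus strand).
Ifitm1 and Ifitm3: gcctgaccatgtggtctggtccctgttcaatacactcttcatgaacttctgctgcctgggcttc
Ifitm2 and Ifitm3: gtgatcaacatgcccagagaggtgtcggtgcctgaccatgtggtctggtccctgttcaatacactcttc

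The runs were 64 and 69 bases long, and the reads were 150 bases. In the GENCODE M21 transcripts (GRCm38), none of the 587 windows of 150 bases in Ifitm1, the 529 in Ifitm3 and the 514 in Ifitm6 occurred in a transcript of another gene. Of the 506 windows in Ifitm2, 119 also occurred in Gm45717, a gene annotated at the same locus that is not a row of the count table. With 50-base windows Ifitm2 shared 294 of 606 with other genes, unnamed predicted genes among them, so its count is the least certain of the 4 where reads were trimmed or soft-clipped.

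Total counts were 6357862 to 9076806 under the Ythdf3-/- label, and 16650134 and 8968162 under the WT label. All 12 HSC markers listed for the check had counts in every library, and 11 or 12 of them had at least 100 counts. The exceptions were near 0: Fgd5 had 2 and 5 counts for Ythdf3-/- labels 1 and 3, and Slamf1 had 1 count for WT label 2. Ythdf3 itself did not follow its labels: under the Ythdf3-/- label it was counted 2, 339 and 366 times, and under the WT label 20 and 29 times. The libraries labelled Ythdf3-/- 2 and 3 were highest and that labelled Ythdf3-/- 1 was lowest, so the groups overlapped. The log2 fold change of the Ythdf3-/- label over the WT label was 3.64 (SE 2.65, edgeR adjusted p = 0.9998). Every direction below therefore refers to the labels alone.

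Ifitm1, Ifitm2 and Ifitm3 were abundant in every library and Ifitm6 was nearly absent. Together the 4 genes took 0.599%, 0.831% and 0.781% of all counts in Ythdf3-/- libraries 1, 2 and 3 as labelled, and 0.688% and 0.481% in WT libraries 1 and 2 as labelled. All later values keep this order of libraries. Counting error was small beside these differences, as the widest 95% Wilson interval, in the library labelled Ythdf3-/- 3, ran from 0.775% to 0.788%. Such intervals cover counting error only, since amplified reads without molecule identifiers are not independent molecules.

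Ifitm1, the plasma membrane member, had 19158, 41050 and 31296 counts under the Ythdf3-/- label, against 60111 and 21294 under the WT label. As CPM, which is the count divided by the library total and multiplied by 1000000, this was 3013, 4523 and 4460 under the Ythdf3-/- label and 3610 and 2374 CPM under the WT label. The library labelled WT 2 was lowest and the library labelled WT 1 lay between those labelled Ythdf3-/- 1 and 3, so the groups overlapped. The means were 3999 ± 854 CPM (SD, n = 3) and 2992 ± 874 CPM (SD, n = 2). The log2 fold change of the Ythdf3-/- label over the WT label was 0.34 (SE 0.27), a 1.26-fold difference with a 95% interval of 0.822 to 1.94, and did not pass (edgeR adjusted p = 0.9998).

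Ifitm2, an endosomal member, had 8878, 18977 and 13800 counts under the Ythdf3-/- label and 30623 and 12100 under the WT label. Its levels were 1396, 2091 and 1967 CPM under the Ythdf3-/- label and 1839 and 1349 CPM under the WT label. The order of the libraries was the same as for Ifitm1 except that those labelled Ythdf3-/- 2 and 3 were further apart, and the groups overlapped again. The log2 fold change was 0.11 (SE 0.27), or 1.08-fold with a 95% interval of 0.696 to 1.66 (edgeR adjusted p = 0.9998). Its direction turned when the library labelled WT 2 was left out (-0.048) and likewise for that labelled Ythdf3-/- 2 (-0.018).

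Ifitm3, the endosomal member best known for restricting influenza virus, had 10050, 15431 and 9728 counts under the Ythdf3-/- label and 23782 and 9734 under the WT label. Its levels were 1581, 1700 and 1386 CPM under the Ythdf3-/- label and 1428 and 1085 CPM under the WT label. The lowest library labelled Ythdf3-/- lay just below the highest labelled WT, so the groups overlapped by this pair. The log2 fold change was 0.22 (SE 0.25), or 1.17-fold with a 95% interval of 0.781 to 1.75 (edgeR adjusted p = 0.9998).

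Ifitm6, a family member described in mouse macrophages, was counted 2 times in the library labelled Ythdf3-/- 1 and 0 times in the other 4. A count of 0 allows up to 0.331 and 0.428 CPM for Ythdf3-/- labels 2 and 3, and up to 0.180 and 0.335 CPM for WT labels 1 and 2. Ifitm6 fell under the filter on low counts and was not tested. Among the 12 markers of monocytes and macrophages, Ccr2, Ms4a7 and Mpeg1 were at 0 in every library, and the summed level of the 12 was 143, 105 and 319 CPM under the Ythdf3-/- label and 142 and 49.0 CPM under the WT label. Of the 5 tested, 4 were fitted higher under the Ythdf3-/- label and 1 lower. None passed in edgeR, and DESeq2 called 1, beside 2.24% of all tested genes. C1qc had 364, 298 and 259 counts under the Ythdf3-/- label and 10 and 0 under the WT label (log2 fold change 6.97, SE 2.63, edgeR adjusted p = 0.964). C1qb, the 1 fitted lower, had 0, 280 and 242 counts against 12 and 425 (log2 fold change -0.27, SE 2.54). Fcgr1, which was not tested, had 0 counts in each library labelled Ythdf3-/- and 727 and 2 under the WT label.

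**Figure D1:**
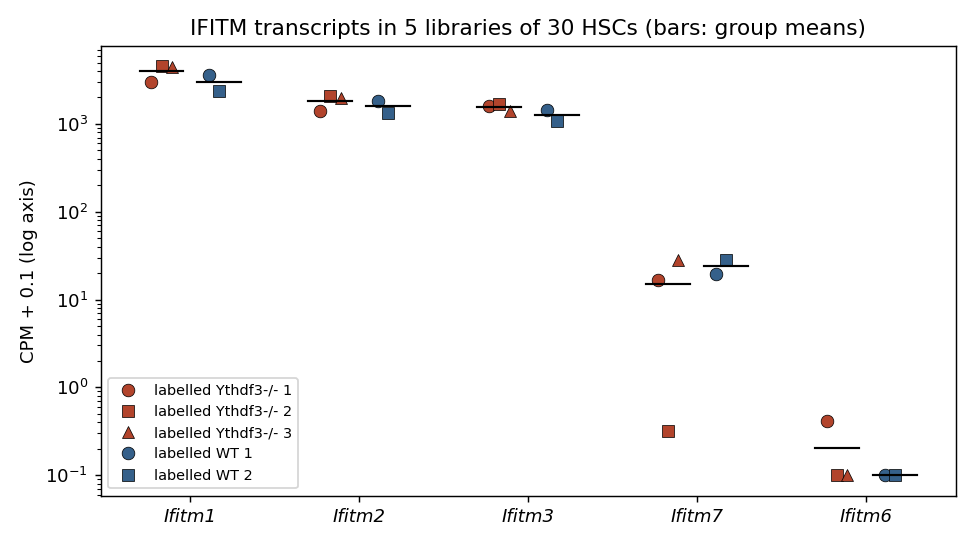
CPM plus 0.1, on a log axis, of the 4 family members and the related gene Ifitm7 in each library, with a bar at the mean of each label. Ifitm1, Ifitm2 and Ifitm3 lay between 1085 and 4523 CPM in all 5 libraries and their groups overlapped, whereas Ifitm6 had counts in 1 library only.

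No member passed the edgeR test, and no gene of the 11146 tested did (0% called). The groups overlapped for all 3 tested members, while they did not overlap for 20.7% of tested genes. At an unadjusted p under 0.05 there were 541 genes (4.85%), and DESeq2 called 250 (2.24%), in neither case a member. The p-values of Ifitm1, Ifitm2 and Ifitm3 before adjustment were 0.247, 0.710 and 0.400 in edgeR. The 95% interval of each of the 3 genes held both equal levels and a level 1.5-fold higher under the Ythdf3-/- label.

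**Figure D2:**
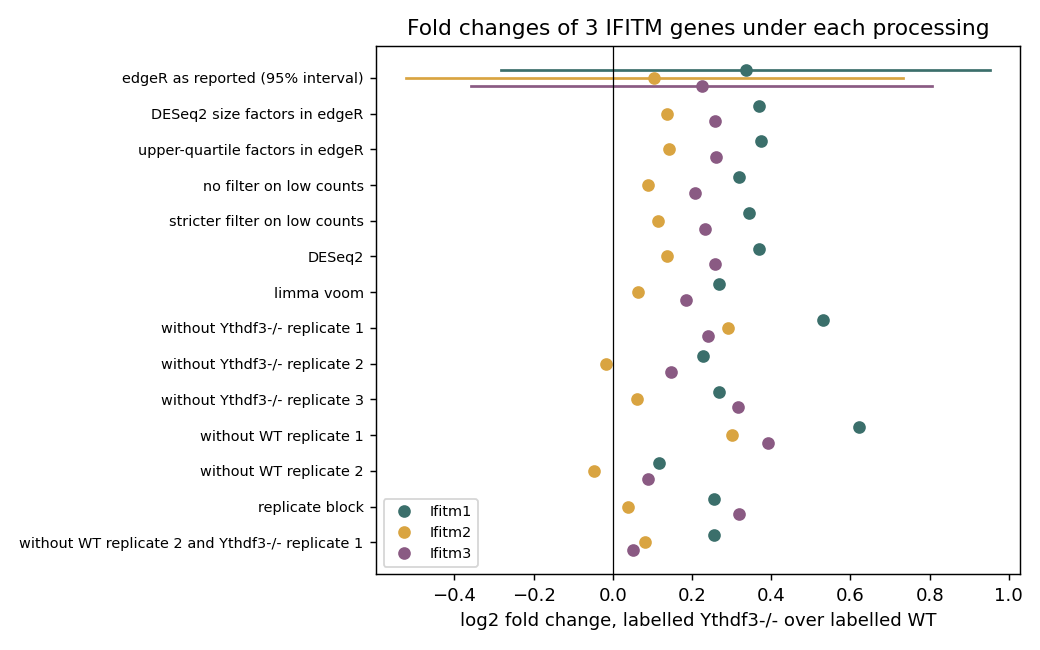
Log2 fold change of Ifitm1, Ifitm2 and Ifitm3, labelled Ythdf3-/- over labelled WT, under the reported fit with its 95% interval (top row) and under each alternative processing. Ifitm1 and Ifitm3 stayed above 0 in every row, and Ifitm2 turned below 0 when the library labelled Ythdf3-/- 2 or WT 2 was left out.

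Because the library labelled WT 2 was lowest for Ifitm1, Ifitm2 and Ifitm3 alike, the family's summed level was compared as well. It was 5991, 8313 and 7813 CPM under the Ythdf3-/- label and 6878 and 4809 CPM under the WT label. The libraries labelled WT 2 and Ythdf3-/- 1 were the lowest, so the groups overlapped. The means were 7372 ± 1222 CPM (SD, n = 3) and 5843 ± 1463 CPM (SD, n = 2), a difference of 1529 CPM (exact permutation test, two-sided, p = 0.4). As the smallest p possible is 0.2, this test could not have called any difference. Leaving out the library labelled WT 2 gave a difference of 495 CPM, and leaving out WT 1 gave 2563 CPM.

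Markers of other cells stood out in some libraries. The 10 erythroid markers summed to 36740, 2161 and 1973 CPM under the Ythdf3-/- label and to 2630 and 3028 CPM under the WT label. Outside the library labelled Ythdf3-/- 1 most of the sum was Car2. Car2 stood at 1143, 2032 and 1851 CPM under the Ythdf3-/- label and at 2596 and 1743 CPM under the WT label. At least 100 counts were reached by 7, 5 and 5 of the 10 markers under the Ythdf3-/- label. Under the WT label 2 and 10 of them reached this. In the library labelled Ythdf3-/- 1 the sum was mostly globin RNA, with Hba-a1 at 18520 CPM. In that labelled WT 2 the erythroid carbonic anhydrase gene Car1 stood at 456 CPM against 3.78 CPM or less elsewhere. The 8 B cell markers summed to 1562, 220 and 97.1 CPM under the Ythdf3-/- label and to 581 and 58.5 CPM under the WT label. They were highest in the libraries labelled Ythdf3-/- 1 and WT 1, where 7 of the 8 had at least 100 counts, against 1 of 8 in each of the others, and lowest in that labelled WT 2. The 5 markers of T and NK cells summed to 93.1, 56.9 and 14.1 CPM under the Ythdf3-/- label and to 0.841 and 10.3 CPM under the WT label, with 2 of the 5 at 0 in every library. The 12 HSC markers summed to 2587, 3196 and 3874 CPM under the Ythdf3-/- label and to 3188 and 1994 CPM under the WT label, lowest, like the IFITM sum, in the libraries labelled WT 2 and Ythdf3-/- 1. In pooled cells, fewer cells of a type and less RNA per cell cannot be told apart, and the part of these markers in the IFITM levels was not tested. With the libraries labelled WT 2 and Ythdf3-/- 1 left out, a choice made after seeing the data, the log2 fold changes of Ifitm1, Ifitm2 and Ifitm3 were 0.26, 0.08 and 0.05 (edgeR adjusted p = 0.858, 0.956 and 0.989), with 1 library labelled WT remaining.

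**Figure D3:**
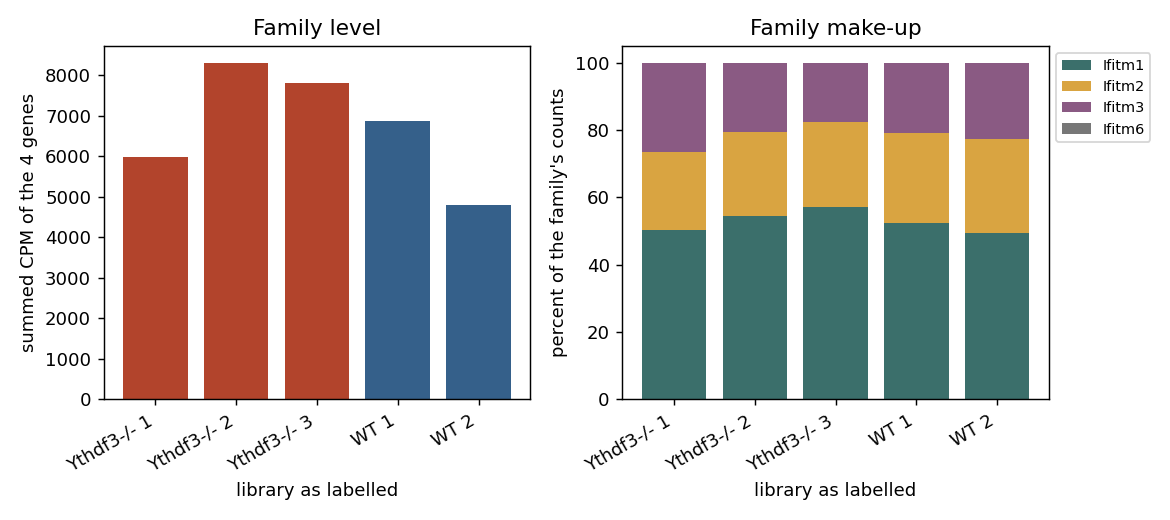
Left, the summed CPM of the 4 IFITM genes in each library. Right, the percent of the family's counts taken by each gene, where Ifitm1 held between 49.4% and 57.1% and Ifitm6 is too small to see.

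Ifitm1 held about as many of the family's counts as Ifitm2 and Ifitm3 together. Its share was 50.3%, 54.4% and 57.1% under the Ythdf3-/- label and 52.5% and 49.4% under the WT label. Ifitm2 held 23.3%, 25.2% and 25.2% under the Ythdf3-/- label and 26.7% and 28.1% under the WT label. Ifitm3 held 26.4%, 20.5% and 17.7% against 20.8% and 22.6%, the widest range of the 3.

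For Ifitm2 every library labelled Ythdf3-/- was below every library labelled WT, by 2.86 percentage points on average (24.5 ± 1.07%, SD, n = 3, and 27.4 ± 0.930%, SD, n = 2). The p-value was the smallest the design allows (exact permutation test, two-sided, p = 0.2, and 0.8 adjusted over the 4 members). The shares sum to the whole, so they are not independent of each other. The shares of Ifitm1 and Ifitm3 differed by 3.0 and -0.142 percentage points, with overlapping groups (exact permutation test, two-sided, p = 0.4 and 1, adjusted p = 0.8 and 1).

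Per length, Ifitm1 was the highest member in all 5 libraries. Dividing by annotated transcripts of 736, 655 and 678 bases gave Ifitm1 4094, 6145 and 6060 CPM per kb under the Ythdf3-/- label and 4905 and 3226 CPM per kb under the WT label. Ifitm2 stood at 2132, 3192 and 3003 CPM per kb in the libraries labelled Ythdf3-/- and at 2808 and 2060 CPM per kb in those labelled WT. For Ifitm3 the values were 2331, 2507 and 2045 CPM per kb and 2107 and 1601 CPM per kb.

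Ifitm1 exceeded Ifitm2 by a mean log2 ratio of 0.87 ± 0.15 (SD, n = 5) and Ifitm3 by 1.18 ± 0.29, in 5 of 5 libraries each, with the smallest p that 5 libraries allow (exact sign-flip permutation test, two-sided, p = 0.0625, adjusted over 3 pairs p = 0.0938). Ifitm2 exceeded Ifitm3 in 4 of 5 libraries by a mean log2 ratio of 0.31 ± 0.26 (SD, n = 5; exact permutation test, p = 0.125, adjusted p = 0.125), and in the library labelled Ythdf3-/- 1 the order of this pair was the other way round. These tests of order were added after the levels were seen.

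Library-to-library variation of the abundant members was small for this data set. The SD of log2(CPM + 1) over the 5 libraries was 0.39 for Ifitm1, 0.29 for Ifitm2 and 0.25 for Ifitm3, while the median over all tested genes was 1.57. Among the 82 tested genes with a mean of at least 1000 CPM the median was 0.29, and 53, 40 and 24 of them varied less than Ifitm1, Ifitm2 and Ifitm3. The members therefore varied about as much as other genes read at their level.

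**Figure D4:**
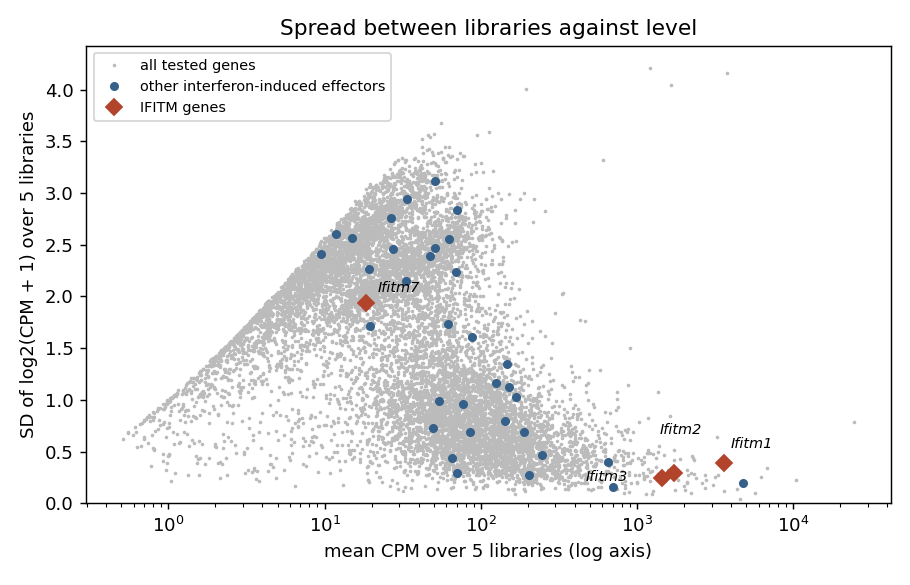
SD of log2(CPM + 1) over the 5 libraries against mean CPM (log axis) for all tested genes, with 4 IFITM genes and 34 other interferon-induced effectors marked. Ifitm1, Ifitm2 and Ifitm3 sit at the low-variation, high-level end with SDs of 0.25 to 0.39, against a median of 1.48 among the marked effectors and 1.57 over all tested genes.

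The genes closest in pattern were found by the root-mean-square difference of log2(CPM + 1), centred on each gene's mean, over the 5 libraries and among 4487 named genes of at least 50 CPM. Ifitm1 was nearest to Whsc1l1 (0.074), Kxd1 (0.103) and Rab11a (0.109), and Ifitm2 stood in place 7. Ifitm2 was nearest to Gng10 (0.053), Mmadhc (0.065) and Card19 (0.076), with Ifitm1 in place 17. Ifitm3 was nearest to Idh3g (0.058), Slc25a5 (0.066) and Calm2 (0.077), while Ifitm2 and Ifitm1 came in places 130 and 185. With 5 libraries many genes come this close, so the distances are a description only.

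Of the other genes of the dispanin family, to which IFITM belongs, Ifitm7 had low counts and Ifitm5 and Ifitm10 hardly any. Ifitm7 lies on chromosome 16 (13981702 to 13986867, minus strand), and its coding sequence is 88.8% identical to that of Ifitm1. It had 105, 2 and 198 counts under the Ythdf3-/- label and 323 and 252 under the WT label (log2 fold change -0.77, SE 2.17, edgeR adjusted p = 0.9998). Its span overlaps a gene annotated on the other strand, with which 77 of its 704 windows of 150 bases are shared, and the strand setting of the counting is not given in the sources used here. The bone-expressed Ifitm5 had 1 count in each library labelled WT and 0 under the Ythdf3-/- label, and Ifitm10 had 0 throughout.

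Genes of interferon signalling were read next to the family, by role. Of the genes of interferon itself only Ifnb1, Ifna4 and Ifng were looked at, and they had no count in any library. Of 8 tested genes for receptors and their kinases, 6 were fitted higher under the Ythdf3-/- label and 2 lower, and none passed, beside 47.8% fitted higher and 52.2% fitted lower among all tested genes. Their median log2 fold change was 0.89, against -0.06 over all tested genes, and was 0.44 when the library labelled WT 2 was left out and 0.15 when that labelled Ythdf3-/- 1 was left out as well. Jak1, the kinase shared by the interferon receptors, had 1092, 1940 and 3223 counts under the Ythdf3-/- label and 8652 and 2483 under the WT label, the most reads of the list when summed over libraries. Ifngr1, a chain of the interferon gamma receptor, averaged 136 ± 56.6 CPM and 66.9 ± 46.8 CPM in that order of labels.

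Among the transcription factors of the response, 9 of 11 were fitted higher and 2 lower, with a median log2 fold change of 1.05 and none past the test. Leaving out the library labelled WT 2 made the median 0.41, and leaving out WT 1 made it 2.06. Stat3, a signal transducer of cytokine receptors, averaged 399.5 ± 144 CPM under the Ythdf3-/- label and 156.8 ± 96.8 CPM under the WT label (log2 fold change 1.28, SE 0.54, edgeR adjusted p = 0.983). Irf5 had 88, 890 and 1103 counts against 61 and 181 (log2 fold change 2.79, SE 1.44, edgeR adjusted p = 0.983). Irf9, a part of the factor that binds the response element, had a log2 fold change of 1.05 (SE 0.77). Foxo3 had 778, 943 and 1037 counts under the Ythdf3-/- label and 1929 and 1507 under the WT label (log2 fold change -0.29, SE 0.53). Irf9 and Foxo3 were named outside the rule for naming genes, after their values were seen.

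The brakes of the pathway had 5 of 7 genes fitted higher (median 0.17) and the sensors of foreign nucleic acid 5 of 8 (median 0.18), none of them past the test. Leaving out single libraries moved the median of the brakes to between 0.06 (Ythdf3-/- 3) and 0.41 (Ythdf3-/- 2). The median of the sensors was 0.69 with WT 1 left out, 0.06 with Ythdf3-/- 2 left out, and below 0 with WT 2 (-0.34) or Ythdf3-/- 1 (-0.074) left out and in limma voom (-0.16). Ptpn6, a phosphatase that dampens cytokine signals, averaged 394.7 ± 262 CPM and 184 ± 75.1 CPM under the Ythdf3-/- and WT labels. Ptpn2, another such phosphatase, averaged 35.3 ± 6.30 CPM and 79.4 ± 22.2 CPM. The adaptor gene Mavs had 1, 5 and 244 counts against 3246 and 323, and Eif2ak2, which encodes the kinase PKR, had 186, 1 and 197 against 14 and 8. The sensor adaptor Tmem173 (STING) was present throughout, with 737, 1167 and 523 counts against 2003 and 477.

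Some of the other interferon-induced effectors were nearly absent from single libraries. Of 34 tested, 21 were fitted higher and 13 lower (median log2 fold change 0.24), and none passed. The median was 0.02 in limma voom, and leaving out a library made it 0.70 (WT 1), 0.40 (WT 2) or 0.36 (Ythdf3-/- 3). Of the 37 on the list, 14 had 5 counts or fewer in at least 1 library and 100 or more in another. Ifitm1, Ifitm2 and Ifitm3 had at least 8878 counts in every library, and the effectors were not matched to them in level. The same count was not made over all genes, so it is no trait of the effectors. Their median SD of log2(CPM + 1) over the libraries was 1.48 among the 34 tested, near the 1.57 of all tested genes. Mx2, an antiviral GTPase, had 287, 254 and 4 counts under the Ythdf3-/- label and 4 and 5 under the WT label. Oasl1 had 102, 388 and 0 counts against 2 and 1. Both came from the libraries labelled Ythdf3-/- 1 and 2, and neither passed (edgeR adjusted p = 0.984 for each). B2m, the light chain of MHC class I, had 4682, 5461 and 5500 CPM under the Ythdf3-/- label and 4040 and 4312 CPM under the WT label, without overlap (log2 fold change 0.23, SE 0.19, edgeR adjusted p = 0.9998). Only Dtx3l, Zc3hav1, Ly6e and B2m of the 34 varied less between libraries than Ifitm1.

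Genes for proteins that modify or bind IFITM proteins were mostly read in every library. Of 11 tested, 7 were fitted higher and 4 lower (median log2 fold change 0.35). The median was 1.16 with WT 1 left out, 0.67 with Ythdf3-/- 1, 0.18 with Ythdf3-/- 2, -0.028 with WT 2 and -0.056 with Ythdf3-/- 3 left out. Vapa, which encodes an endoplasmic reticulum anchor protein bound by IFITM3 in human cells, had 383, 331 and 317 CPM under the Ythdf3-/- label and 182 and 115 CPM under the WT label, without overlap (log2 fold change 1.13, SE 0.41, edgeR adjusted p = 0.964). Cd81, the tetraspanin that associates with IFITM1, stood at 914, 995 and 986 CPM against 1047 and 534 CPM. Nedd4, the ubiquitin ligase of IFITM3, had 1803, 4745 and 4150 counts against 10423 and 3055, a gene named after its values were seen. Across all these lists, 3 of 80 tested genes had an unadjusted p under 0.05, Stat3 and Vapa among them, beside 4.85% of all tested genes.

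**Figure D5:**
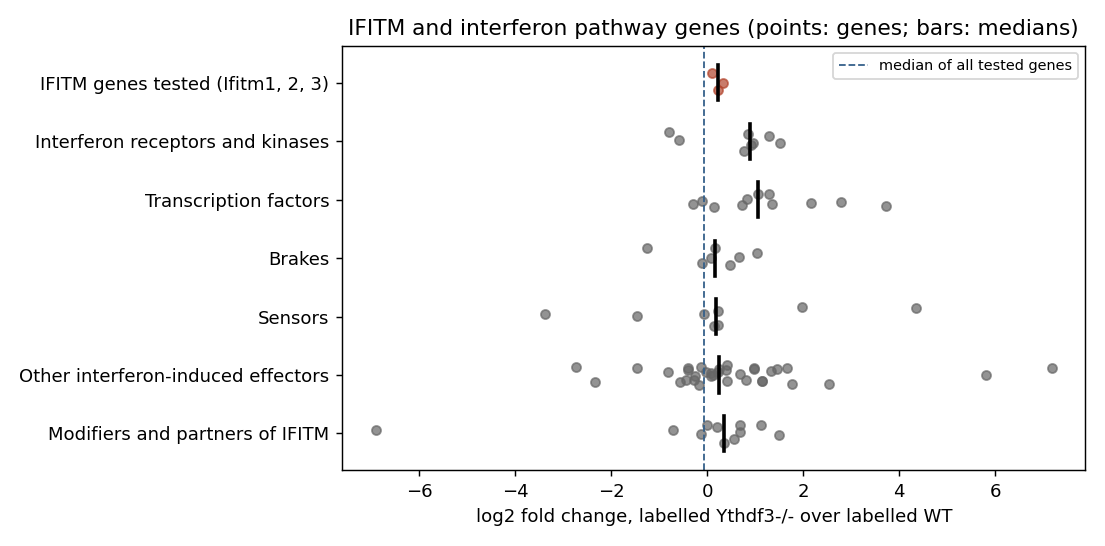
Log2 fold change, labelled Ythdf3-/- over labelled WT, of each tested IFITM gene and of each tested gene of 6 interferon-related lists, with list medians as bars and the median of all tested genes as a dashed line. Ifitm1, Ifitm2 and Ifitm3 lie between 0.11 and 0.34, and no gene shown passed the test.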

How the data were processed

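The deposited table holds raw counts per gene symbol made by the authors from paired 150-base Smart-seq2 reads of 30 sorted cells per library. HISAT2 2.2.1, HTSeq 0.12.4 and mm10 are named in the submitters' processing notes. For the annotation, the strand setting and reads with several alignments, the treatment was not given in the sources used here. Libraries were grouped by their labels, and per the series text each comes from a separate mouse.

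All genes passing the default expression filter of edgeR 4.0.16 (R 4.3.3) were scaled by TMM and tested with its quasi-likelihood test, robustly and without covariates, with Benjamini-Hochberg adjustment at 0.05 over all tested genes. The SE of a fold change is its size over the root of F, and 95% intervals follow from it. DESeq2 1.42.0 and limma voom (limma 3.58.1), other scalings and filters, a replicate block and leaving out libraries were alternatives. CPM used library totals. The common biological coefficient of variation was 1.26. Single values were compared by exact permutation of the libraries. Per-length values used the GENCODE M21 transcript numbered 201 of each gene, and promoters are from RefSeq (GRCm38.p6), where all 4 members matched. The genes named are the members, Ythdf3 and, of each list, the 2 tested genes with the smallest p and the most abundant. Car2, C1qb, Fcgr1, Fgd5 and Slamf1 were named outside this rule, after their values were seen. Members and lists were chosen with earlier results of these data known. Values of some listed genes are not reported here.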

Additional observations from a re-analysis of the deposited data

How the results depend on the processing

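No member of the family and none of the 80 tested interferon pathway genes passed under any alternative run. The count over all genes, 0 in edgeR, was 21 with no filter on low counts, 250 with DESeq2 and between 0 and 1 when single libraries were left out (1 without the library labelled WT 1). With single libraries left out, the log2 fold change of Ifitm1 ran from 0.12 (WT 2 left out) to 0.62 (WT 1 left out), that of Ifitm2 from -0.048 to 0.30 and that of Ifitm3 from 0.088 to 0.39. The difference in Ifitm3's share of the family ran from -2.57 to 1.75 percentage points, and that of Ifitm6 from 0 to 0.00263, where fewer samples were compared. The cause of the turns in sign was not tested. The other scalings and filters moved the 3 fold changes by less than their SE. With the replicate number as a block the log2 fold changes were 0.26, 0.04 and 0.32 for Ifitm1, Ifitm2 and Ifitm3, and 0 genes passed. The mice differ, and deviations of same-numbered libraries from the mean of their label correlated at -0.00866 and 0.00368 across genes. With 2 libraries labelled WT, whose deviations mirror each other, these values cannot decide whether the numbers pair libraries. Counting error is small for the 3 abundant members, and variation between mice, cell sampling and amplification cannot be told apart. For Ifitm6 depth allows no comparison.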

Other observations

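Genes beside the cluster were read as well, including those for unrelated proteins. Of 29 rows within 200 kb of the 4 members, 13 were tested, with 7 fitted higher and 6 lower under the Ythdf3-/- label. Among all tested genes 47.8% were fitted higher and 52.2% lower. None of the 13 passed in edgeR, while DESeq2 called 1 of them, Hras, beside 2.24% of all tested genes. Sirt3, a mitochondrial deacetylase, had 2883, 2816 and 3564 counts under the Ythdf3-/- label and 5047 and 627 under the WT label. Hras, which encodes a small GTPase, had 182, 544 and 2 counts against 0 and 2, and Ric8a, a chaperone of G protein subunits, had 434, 881 and 562 against 7361 and 1029 (log2 fold change -1.83, SE 0.62, edgeR adjusted p = 0.964).

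The letters GGACT, 1 form of the sequence at which mRNA is methylated at N6 of adenosine, occurred 2 times each in the transcripts of Ifitm1 and Ifitm6, outside the coding sequence, and not in those of Ifitm2 and Ifitm3. Of 8432 protein-coding transcripts of 600 to 900 bases, 59.4% held it. Such a match does not show that a base is methylated.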
